A study of Homo sapiens with 12 samples.

Results

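Cadherins are transmembrane proteins that hold neighbouring cells together through calcium-dependent contacts between their extracellular repeats, and the genes described here were those whose symbols in the platform's probe gene table begin with CDH and a digit or with PCDH. By this rule 90 genes with 161 probes were members, out of 20046 named genes and 47323 probes on the array. Classical and type II cadherins carry a cytoplasmic tail that binds catenins and so ties the contact to actin. Protocadherins lack that tail. The non-clustered protocadherins lie singly in the genome, whereas the alpha, beta and gamma protocadherins lie in tandem on the long arm of chromosome 5, where each isoform starts from a promoter of its own. In neurons different cells use different isoforms of the clusters, and this choice depends on DNA methylation, CTCF and cohesin. N-cadherin (CDH2) is the main classical cadherin of neural crest derivatives, from which neuroblastoma arises.

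The levels came from 12 bead arrays of SK-N-SH, a human neuroblastoma line from a bone marrow metastasis, in 4 groups of 3. WT was the untreated parental line. WT-v was the parental line exposed intermittently to vorinostat (SAHA), an inhibitor of class I and II histone deacetylases. DoxR had been selected for resistance by rising doses of doxorubicin, and DoxR-v had gone through the same selection with vorinostat given at each dose step. Each group was 1 line, so an effect of a drug cannot be told apart from a change that arose in that line during culture, and neither the labels nor the study say that the 3 specimens of a group came from separate cultures. The p-values below therefore measure only the spread between these specimens.

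All levels are log2 of the background-corrected, quantile-normalized intensity of a gene's brightest tested probe, so a difference of 1 is a doubling. A probe was detected where its p-value against the array's negative controls was below 0.01. The lowest detected probe of an array had a log2 level between 5.13 and 5.55, and where a probe was not detected on any array of the dimmer group a fold is given as a lower bound ("at least") set by that floor. Such a bound holds only on this normalization, and other processing gave smaller differences for some of these genes. A gene was called at an adjusted p below 0.1 in limma with a fold above 1.5. Between 14969 and 17220 probes were detected per array, arrays correlated at 0.982 to 0.992 within groups and at 0.936 to 0.971 between groups, and no array pair was identical. The time from the last vorinostat dose to RNA extraction is not given in the sources used here. Of 12 adrenergic neuroblast markers, 10 were tested and were detected on all 3 arrays of each group, with the exception of TH in DoxR. No endothelial marker of 8 was detected, and of 8 haematopoietic markers PTPRC, CD3E and SPI1 were not detected. The summed level of the 2 tested haematopoietic genes (CD14 and LCP1) was 608 to 755 in DoxR-v and 127 to 242 in the other groups on the linear scale, and its part in the results was not tested. Against WT, LCP1 was at 3.83 and CD14 at -1.22 in DoxR-v.

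Of the 90 members, 36 had a probe that was detected on at least 1 array and were tested, and 54 did not. The tested share was 9 of 21 cadherin (CDH) genes, 8 of 12 non-clustered protocadherins and 19 of 57 clustered protocadherins, the last made up of 5 of 15 alpha, 10 of 19 beta and 4 of 23 gamma genes. Among the cadherins not detected on any array were CDH1 (E-cadherin, of epithelia), CDH5 (VE-cadherin, of endothelium), CDH3 (P-cadherin), CDH15 (M-cadherin, of muscle) and the kidney and gut cadherins CDH16 and CDH17. Of the 36 tested genes, 6 were detected in 1 group only, so a difference in those was fixed in part by the detection filter. Shared sequence is a further limit, since alpha genes and gamma genes share their last exons within each cluster and beta genes and pseudogenes resemble one another. The positions of the probes in these genes are not analysed here.

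Detected on all 3 arrays of a group were 19 members in WT, 23 in WT-v, 20 in DoxR and 16 in DoxR-v. Non-clustered protocadherins numbered 5 in each of the 4 groups, though not the same genes. PCDH19 was counted in WT and DoxR-v, PCDH10 in WT and WT-v, PCDH7 in all groups but WT, and PCDH1 in DoxR alone. Clustered protocadherins numbered 10 in WT, 11 in WT-v, 9 in DoxR and 6 in DoxR-v, and the beta cluster alone gave 7, 8, 7 and 4. Cadherins numbered 4 in WT, 7 in WT-v, 6 in DoxR and 5 in DoxR-v. On at least 1 array, 27 members were detected in DoxR-v, against 28 in WT. By that count the beta cluster gave 8, 9, 9 and 8 in WT, WT-v, DoxR and DoxR-v. Its lower number in DoxR-v thus depended on the demand for all 3 arrays. All clustered protocadherins gave 15, 15, 17 and 12 on at least 1 array, and the non-clustered 6, 5, 5 and 7.

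**Figure D1:**
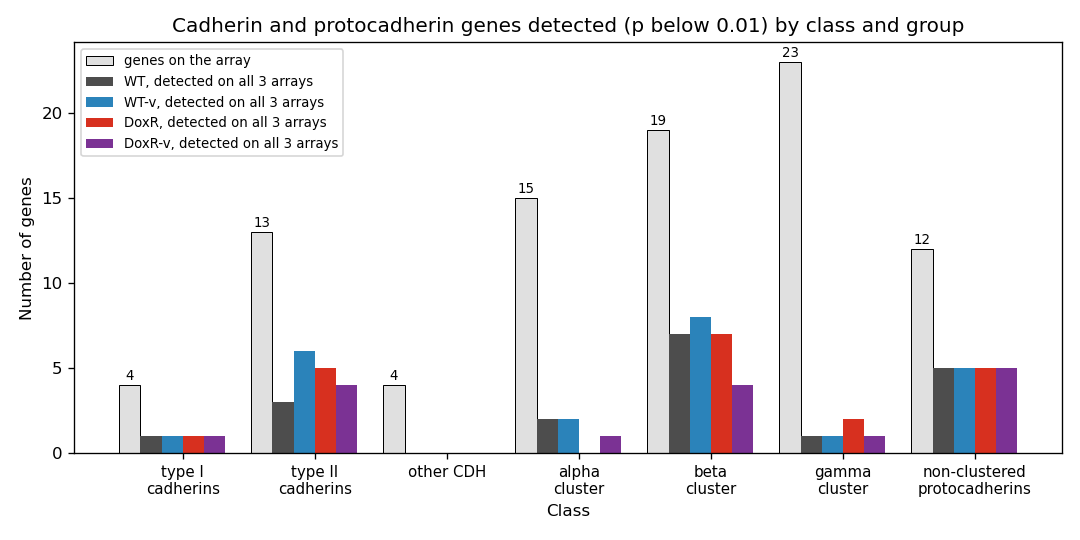
Number of genes (vertical axis) in each class of cadherins and protocadherins that the array holds (pale bars, with the number above) and that were detected on all 3 arrays of each group (coloured bars). Non-clustered protocadherins gave 5 genes in every group, though not the same genes. The beta cluster gave 7, 8, 7 and 4 in WT, WT-v, DoxR and DoxR-v, and 8, 9, 9 and 8 where detection on 1 array was enough (not drawn).

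Against WT, 16 of the 36 tested members were called in DoxR, 9 higher and 7 lower, beside 33.1% of all 12093 tested genes (17.1% higher and 16.0% lower). In DoxR-v 15 were called, 6 higher and 9 lower, beside 24.4% of all genes (12.6% higher and 11.8% lower). In WT-v 9 were called, 4 higher and 5 lower, beside 26.3% of all genes (14.0% higher and 12.3% lower). Between the resistant lines, DoxR-v against DoxR, 18 were called, 7 higher and 11 lower, beside 28.2% of all genes (14.3% higher and 13.9% lower). Between the vorinostat-exposed lines, DoxR-v against WT-v, 13 were called, 6 higher and 7 lower, beside 24.2% of all genes (11.9% higher and 12.3% lower). The interaction was the difference of DoxR-v from DoxR less that of WT-v from WT, and it was called for 15 members, 5 higher and 10 lower than 0, beside 42.1% of all genes (20.2% higher and 21.9% lower). The members' shares lay between 9 and 18 of 36, and the comparisons share arrays, so their counts are not independent. Every count except that of WT-v against WT includes PCDHB12, PCDHGA5 or both. Each of these was detected only in the group where it was higher, so the detection filter had fixed its direction in part. When arrays were scaled to one median instead of quantile normalized, the split of calls moved from 9 higher and 7 lower to 12 and 4 in DoxR, from 6 and 9 to 7 and 7 in DoxR-v, and from 4 and 5 to 10 and 3 in WT-v, all against WT. Without background correction 7, 7 and 2 members were called in DoxR, DoxR-v and WT-v against WT, most of the lost calls falling under the fold threshold.

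**Figure D2:**
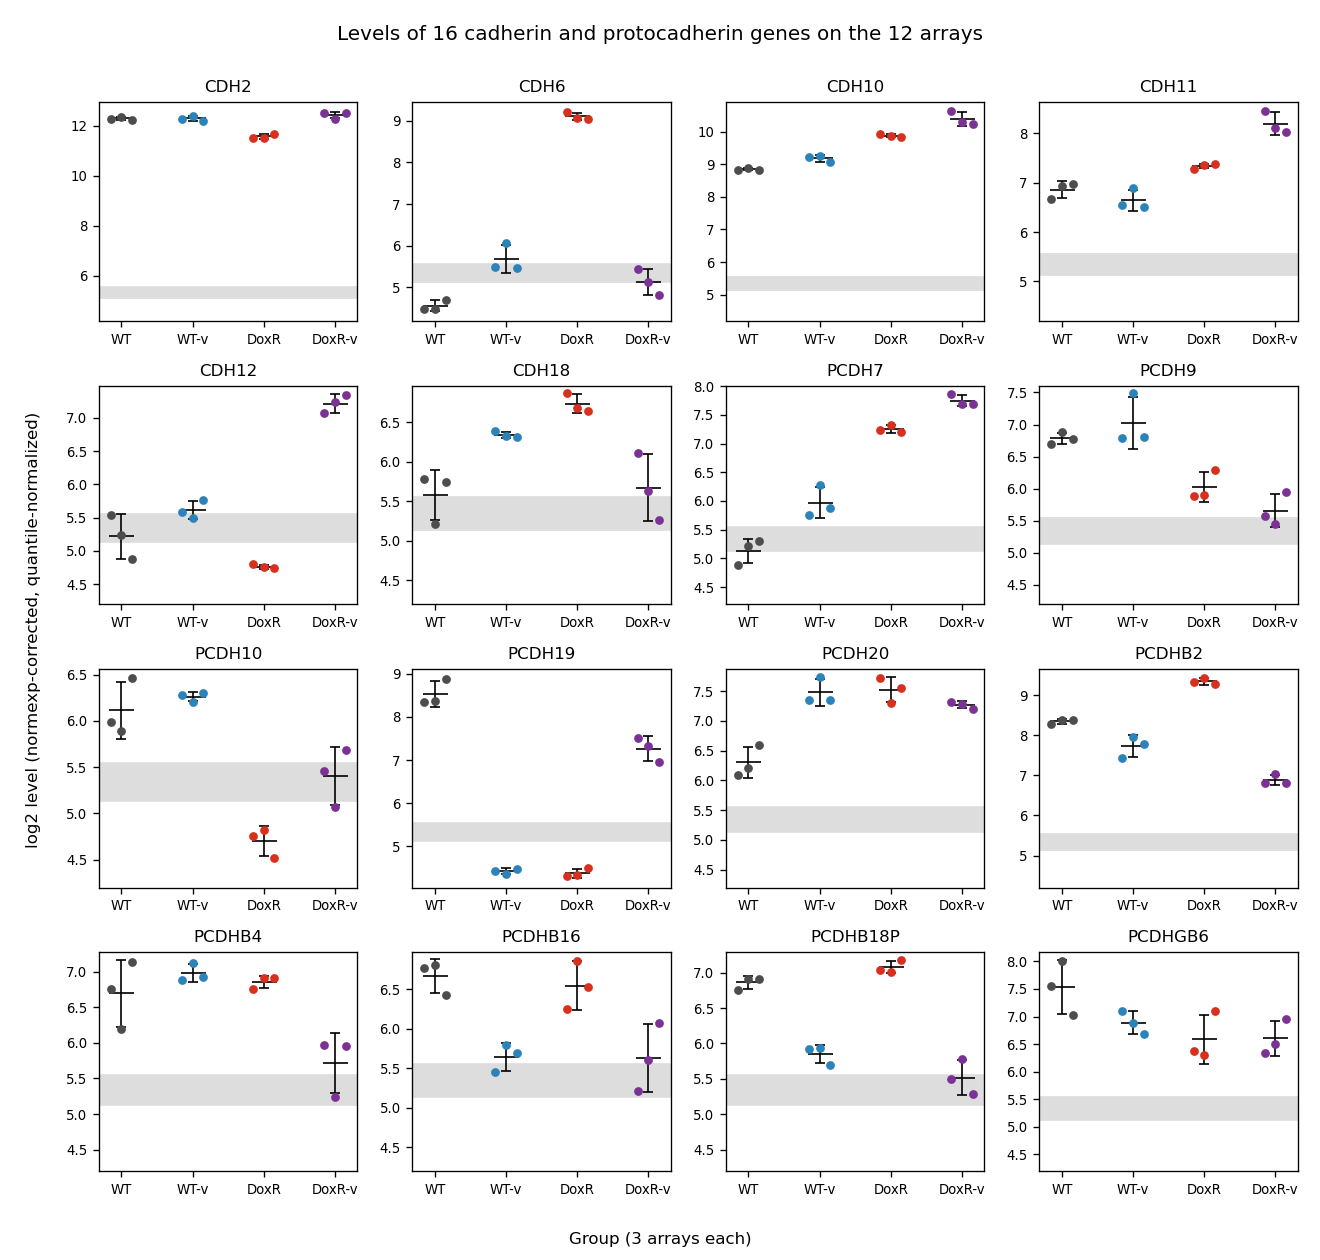
Log2 level (vertical axis of each panel) of 16 genes on every array, by group (horizontal axis, 3 arrays each). Points are arrays, bars the group mean and SD, and the grey band is the range over arrays of the lowest detected level. PCDH19 lay below the band in WT-v and DoxR and far above it in WT and DoxR-v, whereas CDH6 stood high in DoxR alone.

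PCDH19 and CDH6 gave the widest differences among the members. PCDH19 is an X-linked protocadherin of the delta-2 group whose mutation causes epilepsy in girls. Its probe was detected in WT and DoxR-v and on no array of WT-v or DoxR. PCDH19 measured 8.34, 8.38 and 8.88 on the WT arrays, 4.43, 4.36 and 4.48 on the WT-v arrays, 4.31, 4.32 and 4.49 on the DoxR arrays and 7.52, 7.32 and 6.96 on the DoxR-v arrays. The 4 groups did not overlap except that WT-v and DoxR were both at background. The level in WT was at least 9.97-fold that of WT-v (log2 difference -4.11, SE 0.17, adjusted p = 4.12e-09) and at least 9.55-fold that of DoxR (log2 difference -4.16, SE 0.17, adjusted p = 1.13e-09). DoxR-v was at least 3.97-fold above DoxR (log2 difference 2.90, SE 0.17, adjusted p = 3.55e-08) and at least 4.14-fold above WT-v (log2 difference 2.85, SE 0.17, adjusted p = 8.64e-08). It remained 2.41-fold below WT (log2 difference -1.27, SE 0.17, adjusted p = 0.000118). Each exposure alone thus went with a level at background, and the line given both drugs had a level between background and WT. The interaction was 7.01 (95% interval 6.49 to 7.53, adjusted p = 2.98e-10). No floor was set for it, so its size and interval rest in part on the background values of WT-v and DoxR. All 6 calls of PCDH19 held under every alternative run with the same thresholds, but their sizes did not. Over these alternatives WT-v against WT ran from -4.23 to -1.46 and DoxR against WT from -4.28 to -1.48. DoxR-v ran from 0.76 to 3.03 against DoxR and from 0.74 to 3.03 against WT-v. The interaction ran from 2.22 to 7.17. PCDH19 spans chrX:100291644-100410273 on GRCh38.p14, and of 14 other tested genes within 2000000 bases of it 7 were lower and 2 higher in WT-v, 6 lower and 1 higher in DoxR, and 7 lower and 0 higher in DoxR-v, each against WT, beside 12.3%, 16.0% and 11.8% lower among all genes. Their median differences were -0.57, -0.55 and -0.44, with the lowest single value at -1.55 in WT-v, and their part in the PCDH19 result was not tested.

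The 250 bases before the annotated start of PCDH19 (chrX:100410274-100410523, minus strand, RefSeq on GRCh38.p14) are shown because the probe went between background and a high level in these lines. CG pairs, the sites at which vertebrate DNA is methylated, are in capitals and number 21. DNA methylation was not measured.
PCDH19: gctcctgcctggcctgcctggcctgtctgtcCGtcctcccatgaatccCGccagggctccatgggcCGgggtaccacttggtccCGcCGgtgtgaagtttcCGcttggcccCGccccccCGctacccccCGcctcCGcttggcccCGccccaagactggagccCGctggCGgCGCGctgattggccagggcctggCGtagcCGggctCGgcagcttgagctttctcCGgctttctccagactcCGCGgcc

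CDH6 (K-cadherin), a type II cadherin of fetal kidney and early neural crest cells, showed a different order. CDH6 measured 4.48, 4.49 and 4.70 on the WT arrays, 5.49, 6.06 and 5.47 on the WT-v arrays, 9.20, 9.08 and 9.03 on the DoxR arrays and 5.45, 5.13 and 4.82 on the DoxR-v arrays. No WT array detected it, 1 DoxR-v array did, and the 3 DoxR arrays stood more than 2 log2 units above all others. The DoxR level was at least 12.9-fold that of WT (log2 difference 4.55, SE 0.185, adjusted p = 1.05e-09). Over the alternatives with the same thresholds this difference ran from 1.831 to 4.635. DoxR-v, where 1 of 3 arrays detected it, was below DoxR (log2 difference -3.97, SE 0.185, adjusted p = 3.88e-09). WT-v was at least 1.2-fold above WT (log2 difference 1.11, SE 0.185, adjusted p = 0.000584), and DoxR-v differed from WT by 0.58, which missed the fold threshold (adjusted p = 0.0305). The interaction was -5.08 (95% interval -5.65 to -4.52, adjusted p = 1.46e-08). No floor was set for it, although no WT array detected the probe, and it ran from -5.24 to -1.93 over the alternatives. So the line selected without vorinostat carried a high CDH6 level that the line selected with it lacked.

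CDH2 (N-cadherin) was the only tested type I cadherin. CDH2 measured 12.27, 12.35 and 12.23 on the WT arrays, 12.26, 12.39 and 12.20 on the WT-v arrays, 11.52, 11.52 and 11.66 on the DoxR arrays and 12.49, 12.28 and 12.51 on the DoxR-v arrays. The 3 DoxR arrays lay below all 9 others, and the other groups overlapped. CDH2 fell in DoxR against WT (log2 difference -0.72, SE 0.118, adjusted p = 0.00033), and DoxR-v was 1.82-fold above DoxR (log2 difference 0.86, SE 0.118, adjusted p = 8.97e-05). WT-v differed from WT by -0.000417 (95% interval -0.26 to 0.26), and DoxR-v from WT by 0.14 (95% interval -0.11 to 0.40, adjusted p = 0.393). The DoxR calls and the interaction of 0.86 (adjusted p = 0.00139) held under every alternative run with the same thresholds, and all 3 folds were under 2.

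The other type II cadherins called were CDH10, CDH11, CDH12, CDH18 and CDH24. CDH10, CDH12 and CDH18 are found mainly in brain, and CDH11 (OB-cadherin) in bone-forming and other mesenchymal cells. CDH10 measured 8.83, 8.87 and 8.82 on the WT arrays, 9.22, 9.25 and 9.06 on the WT-v arrays, 9.92, 9.86 and 9.82 on the DoxR arrays and 10.62, 10.29 and 10.24 on the DoxR-v arrays. The 4 groups did not overlap and ran upward from WT through WT-v and DoxR to DoxR-v. CDH10 rose 2.04-fold in DoxR (log2 difference 1.03, SE 0.127, adjusted p = 3.16e-05) and 2.91-fold in DoxR-v (log2 difference 1.54, SE 0.127, adjusted p = 1.66e-06) against WT. DoxR-v exceeded DoxR by 0.51 and WT-v exceeded WT by 0.33, both under the fold threshold (adjusted p = 0.00641 and adjusted p = 0.057).

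CDH11 measured 6.66, 6.94 and 6.98 on the WT arrays, 6.54, 6.89 and 6.50 on the WT-v arrays, 7.29, 7.37 and 7.37 on the DoxR arrays and 8.46, 8.10 and 8.02 on the DoxR-v arrays. The DoxR-v arrays were the highest and the WT and WT-v arrays overlapped. CDH11 rose 2.52-fold in DoxR-v against WT (log2 difference 1.34, SE 0.154, adjusted p = 3.26e-05) and 1.81-fold against DoxR (log2 difference 0.85, SE 0.154, adjusted p = 0.000762). The summed level of 9 tested mesenchymal markers was 5157 to 5590 in WT, 8291 to 9371 in WT-v, 13050 to 13990 in DoxR and 9286 to 12230 in DoxR-v on the linear scale. The markers did not move together, with 4 higher and 2 lower in DoxR (median 0.14), 3 higher and 2 lower in DoxR-v (median -0.06) and 5 higher and 2 lower in WT-v (median 0.79) against WT. Among all genes 17.1%, 12.6% and 14.0% were higher and 16.0%, 11.8% and 12.3% lower, in the same order. SNAI2 and TWIST1, which also repress E-cadherin, were among the markers, and COL1A1 and FN1 were not detected in WT, DoxR or DoxR-v. The part of these markers in the CDH11 result was not tested, and in bulk RNA fewer cells of a type and less RNA per cell cannot be told apart.

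CDH12 measured 5.54, 5.24 and 4.88 on the WT arrays, 5.59, 5.50 and 5.77 on the WT-v arrays, 4.80, 4.76 and 4.74 on the DoxR arrays and 7.07, 7.23 and 7.34 on the DoxR-v arrays. It was detected on 1 WT array and no DoxR array, and every DoxR-v array lay more than 1 log2 unit above all others. DoxR-v was at least 3.82-fold above DoxR (log2 difference 2.45, SE 0.16, adjusted p = 1.08e-07), above WT (log2 difference 1.99, SE 0.16, adjusted p = 1.36e-06) and 3.02-fold above WT-v (log2 difference 1.59, SE 0.16, adjusted p = 1.04e-05). The interaction was 2.05 (adjusted p = 1.75e-05), with no floor set for the undetected DoxR arrays. Over the alternatives with the same thresholds DoxR-v against DoxR ran from 0.636 to 2.609, and the interaction from 0.566 to 2.231. CDH12 and CDH6 thus gave opposite orders between the resistant lines.

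CDH18 measured 5.78, 5.22 and 5.75 on the WT arrays, 6.38, 6.33 and 6.31 on the WT-v arrays, 6.87, 6.68 and 6.64 on the DoxR arrays and 6.11, 5.63 and 5.27 on the DoxR-v arrays. The DoxR and WT-v arrays lay above all WT and DoxR-v arrays, and the last pair of groups overlapped. CDH18 rose 2.22-fold in DoxR (log2 difference 1.15, SE 0.2, adjusted p = 0.000503) and 1.69-fold in WT-v (log2 difference 0.76, SE 0.2, adjusted p = 0.0107) against WT. DoxR-v was 2.09-fold below DoxR (log2 difference -1.06, SE 0.2, adjusted p = 0.00107) and did not differ detectably from WT (0.09, 95% interval -0.34 to 0.52). The WT-v difference no longer passed the fold threshold without WT replicate 2 (0.58, adjusted p = 0.0518), and the call of DoxR-v below WT-v was lost without DoxR-v replicate 3 (-0.47, adjusted p = 0.101).

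CDH24, which binds catenins like the classical cadherins, measured 7.52, 7.67 and 7.45 on the WT arrays, 7.84, 6.79 and 7.33 on the WT-v arrays, 8.0, 7.66 and 8.14 on the DoxR arrays and 7.05, 7.49 and 7.49 on the DoxR-v arrays. Only the DoxR-v arrays against the DoxR arrays did not overlap. That comparison gave the single call of CDH24 on its brightest probe (log2 difference -0.59, SE 0.229, adjusted p = 0.0618). The call was lost without DoxR replicate 1 (adjusted p = 0.144), DoxR replicate 3 (0.188) or DoxR-v replicate 1 (0.214), and with median scaling (0.159). Both further CDH24 probes were lower there too, by -0.76 (called) and -0.54. The latter probe was called higher in DoxR against WT (0.60, adjusted p = 0.00959 by limma), where the brightest gave 0.39, not called. As the mean of its probes CDH24 also gave a called interaction (-0.76, adjusted p = 0.0105), which was -0.37 and not called on the brightest. CDH20, a further type II cadherin, measured 5.29, 5.33 and 5.33 on the WT arrays, 4.91, 4.78 and 5.16 on the WT-v arrays, 4.44, 6.14 and 5.22 on the DoxR arrays and 5.15, 5.33 and 5.17 on the DoxR-v arrays. It was detected on 1 DoxR and 1 DoxR-v array and was not called.

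CDH6, CDH10, CDH12 and CDH18, 4 of the 7 tested type II cadherins, lie on the short arm of chromosome 5, between bases 19471296 and 31329146 on GRCh38.p14. Of 82 other tested genes of that arm, 34 were higher and 3 lower in DoxR against WT (median 0.41), beside 17.1% higher and 16.0% lower among all genes (median 0.01). In DoxR-v against WT 14 were higher and 7 lower (median 0.06), beside 12.6% and 11.8% of all genes. In DoxR-v against DoxR 2 were higher and 22 lower (median -0.29), beside 14.3% and 13.9%. Of 517 other tested genes of the whole chromosome, this arm included, 141 were higher and 50 lower in DoxR against WT (median 0.22). Between DoxR-v and DoxR 35 of the 517 were higher and 131 lower (median -0.25). The median of the arm and CDH6, CDH10 and CDH18 were above 0 in DoxR, whereas CDH12 was at -0.45 (adjusted p = 0.0385, under the fold threshold). In DoxR-v against DoxR CDH6 (-3.97) and CDH18 (-1.06) were below 0 like the median of the arm, whereas CDH10 (0.51) and CDH12 (2.45) were above it. In DoxR-v against WT CDH6, CDH10, CDH12 and CDH18 were at 0.58, 1.54, 1.99 and 0.09. DNA copy number was not measured, and the part of the shifts of the arm and the chromosome in these 4 results was not tested.

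**Figure D3:**
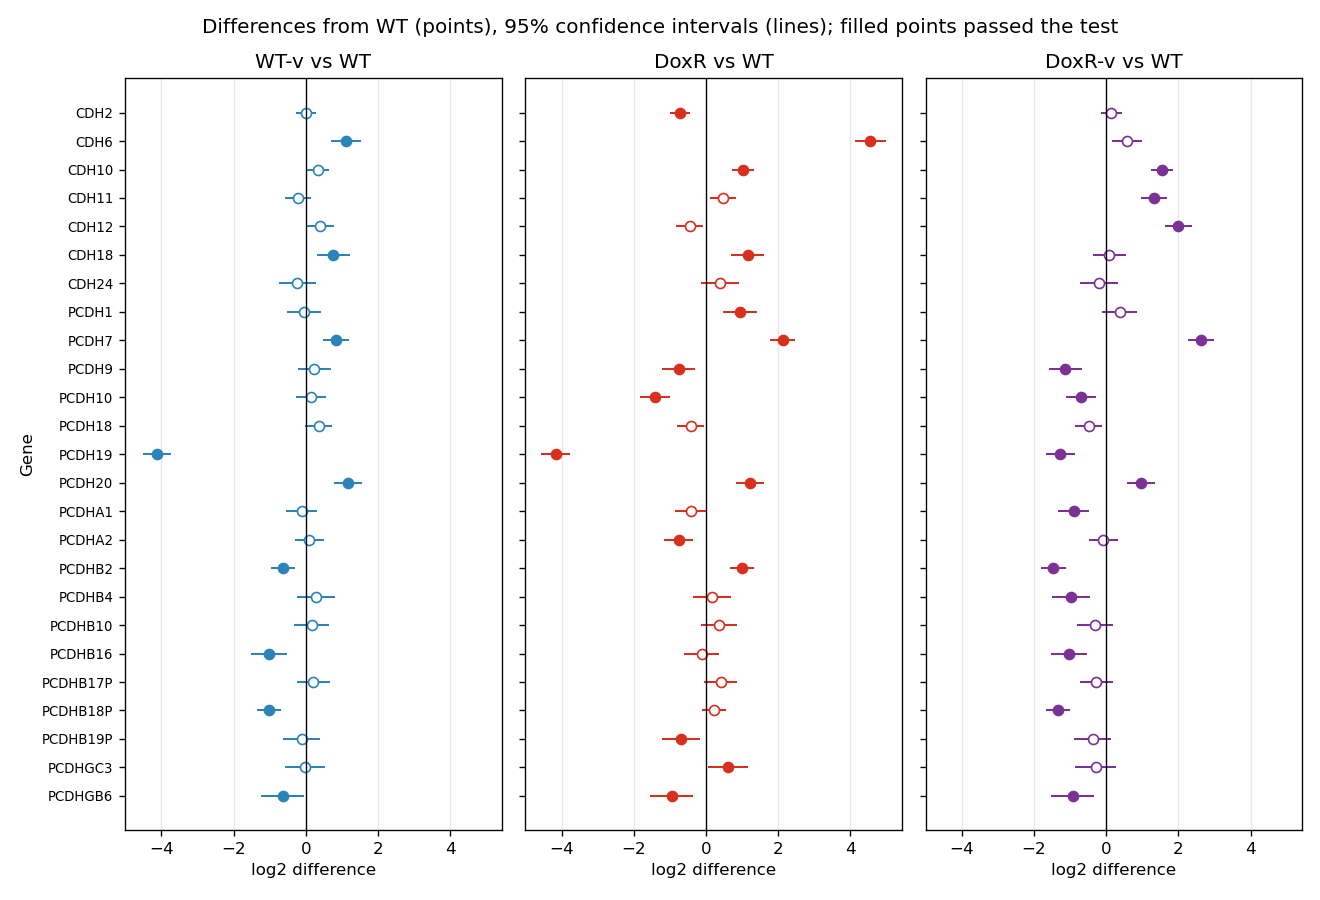
Log2 difference from WT (horizontal axis) of the 25 members that were called in a pairwise comparison and detected on all 3 arrays of a group, in WT-v, DoxR and DoxR-v. Points are differences, lines 95% confidence intervals, and filled points passed the adjusted p and fold thresholds. PCDH19 reached -4.11 in WT-v and -4.16 in DoxR but -1.27 in DoxR-v, whereas PCDH7 and PCDH20 lay above 0 in all 3.

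Among the non-clustered protocadherins other than PCDH19, PCDH7 and PCDH20 were higher than WT in all 3 treated lines, and PCDH9 and PCDH10 were lower in both resistant lines. PCDH7, a delta-1 protocadherin of brain and heart, measured 4.89, 5.21 and 5.29 on the WT arrays, 5.75, 6.27 and 5.88 on the WT-v arrays, 7.24, 7.32 and 7.19 on the DoxR arrays and 7.86, 7.70 and 7.68 on the DoxR-v arrays. It was undetected in WT, and the groups ran without overlap from WT through WT-v and DoxR to DoxR-v. PCDH7 was at least 1.47-fold above WT in WT-v (log2 difference 0.84, SE 0.155, adjusted p = 0.00119), at least 3.58-fold in DoxR (log2 difference 2.12, SE 0.155, adjusted p = 2.67e-07) and at least 5.04-fold in DoxR-v (log2 difference 2.62, SE 0.155, adjusted p = 7.15e-08). A further PCDH7 probe, also undetected in WT, gave 1.51, 1.21 and 1.55 in the same order, so both probes rose in all 3 lines. The probes disagreed between the vorinostat-exposed lines, where DoxR-v exceeded WT-v by 1.78 on the brighter probe and by 0.04 on the other. As the mean of its probes PCDH7 gave a called interaction (-0.76, adjusted p = 0.0021 by limma), which was -0.345 and not called on the brighter probe.

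PCDH20 measured 6.10, 6.21 and 6.60 on the WT arrays, 7.35, 7.74 and 7.34 on the WT-v arrays, 7.71, 7.30 and 7.55 on the DoxR arrays and 7.32, 7.29 and 7.20 on the DoxR-v arrays. All 9 treated arrays exceeded all WT arrays, and DoxR overlapped WT-v and DoxR-v, which lay just apart. PCDH20 rose 2.26-fold in WT-v (log2 difference 1.18, SE 0.166, adjusted p = 0.000182), 2.32-fold in DoxR (log2 difference 1.22, SE 0.166, adjusted p = 7.17e-05) and 1.95-fold in DoxR-v (log2 difference 0.97, SE 0.166, adjusted p = 0.000738). The interaction of -1.42 (adjusted p = 0.000419) set the rise in WT-v against a difference of -0.25 between the resistant lines (adjusted p = 0.283).

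PCDH10 (OL-protocadherin), a delta-2 member that guides axon growth in mice, measured 5.99, 5.89 and 6.46 on the WT arrays, 6.28, 6.20 and 6.30 on the WT-v arrays, 4.76, 4.83 and 4.52 on the DoxR arrays and 5.46, 5.07 and 5.69 on the DoxR-v arrays. No DoxR array detected it, and the DoxR-v arrays lay between DoxR and WT without overlap. WT was at least 1.78-fold above DoxR (log2 difference -1.41, SE 0.181, adjusted p = 4.42e-05) and 1.63-fold above DoxR-v (log2 difference -0.71, SE 0.181, adjusted p = 0.00996). The second PCDH10 probe gave -1.59 in DoxR and -1.0 in DoxR-v, the same directions. The DoxR-v call missed the fold threshold without WT replicate 3 (-0.54) or DoxR-v replicate 2 (-0.53) and was lost with median scaling (-0.39, adjusted p = 0.145). DoxR-v above DoxR was called (log2 difference 0.71, SE 0.181, adjusted p = 0.0083) and missed the fold threshold without DoxR-v replicate 3 (0.56), without background correction (0.23) and with the authors' normalized values (0.12).

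PCDH9, of the delta-1 group, measured 6.70, 6.88 and 6.78 on the WT arrays, 6.78, 7.49 and 6.81 on the WT-v arrays, 5.88, 5.90 and 6.30 on the DoxR arrays and 5.58, 5.45 and 5.94 on the DoxR-v arrays. The resistant lines lay below both parental lines without overlap. PCDH9 fell in DoxR (log2 difference -0.76, SE 0.199, adjusted p = 0.00811) and DoxR-v (log2 difference -1.13, SE 0.199, adjusted p = 0.000893) against WT, and the DoxR call was lost with median scaling (-0.45, adjusted p = 0.103). PCDH18, of the delta-2 group, measured 8.66, 8.38 and 8.78 on the WT arrays, 8.90, 9.18 and 8.84 on the WT-v arrays, 8.33, 8.03 and 8.18 on the DoxR arrays and 8.39, 8.02 and 7.96 on the DoxR-v arrays. Its 1 call was of DoxR-v below WT-v (log2 difference -0.85, SE 0.161, adjusted p = 0.00149), which a second PCDH18 probe gave at -0.94, while in DoxR against WT the probes had opposite signs (-0.43 and 0.16, neither called). The second probe was also called in WT-v against WT (0.83, adjusted p = 0.00262) and in the interaction (-1.10, adjusted p = 0.00335), where the brighter probe gave 0.37 and -0.42, not called. PCDH1, a delta-1 member known from airway epithelium, measured 4.80, 4.95 and 5.11 on the WT arrays, 4.82, 4.94 and 4.99 on the WT-v arrays, 5.96, 5.94 and 5.78 on the DoxR arrays and 5.50, 5.74 and 4.73 on the DoxR-v arrays. It was undetected in WT and WT-v, and DoxR was at least 1.4-fold above WT (log2 difference 0.94, SE 0.207, adjusted p = 0.0028). PCDH15, of the hair cells of the inner ear, was detected on 1 WT array only, and PCDH8, PCDH11X and PCDH12 were not detected.

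Most calls of clustered protocadherins between the resistant lines were downward. Between DoxR-v and DoxR 8 of the 19 tested clustered genes fell and 2 rose, beside 13.9% lower and 14.3% higher among all genes. The median difference was -0.47, beside 0.00 over all genes. The falls include PCDHGA5 and the rises PCDHB12. Each was detected only in the group where it was higher, so the detection filter had fixed its direction in part. With median scaling the same counts of 8 and 2 were found, with a median of -0.43. With the authors' normalized values the falls of PCDHB4, PCDHB10, PCDHB16, PCDHB17P, PCDHB18P and PCDHGC3 missed the fold threshold. Without background correction the same genes except PCDHB18P missed it. The rise of PCDHA2 missed it in both settings, whereas the fall of PCDHB2 held under every alternative run with the same thresholds. In DoxR-v against WT 6 fell and 1, PCDHB12, rose (median -0.37), beside 11.8% lower and 12.6% higher among all genes. In DoxR against WT 3 fell and 3 rose, PCDHGA5 among the latter (median 0.15), beside 16.0% lower and 17.1% higher. In WT-v against WT 4 fell and 0 rose, beside 12.3% lower and 14.0% higher. There 1 of the 19 lay above 0 at an unadjusted p below 0.05, and the median was -0.04. The WT-v counts turned to 2 lower and 2 higher, with a median of 0.05, under median scaling, so no direction is given for that comparison. Non-clustered protocadherins gave 0 lower and 2 higher of 8 between DoxR-v and DoxR (median -0.01, or 0.06 with median scaling), and 1 of 8 lay below 0 at an unadjusted p below 0.05. The difference between the classes was not tested.

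The beta cluster held most of these calls. Between DoxR-v and DoxR 6 of 10 tested beta genes fell and 1 rose (median -0.69), beside 13.9% lower and 14.3% higher among all genes. Against WT 4 fell and 1 rose in DoxR-v (median -0.44), beside 11.8% and 12.6%. The rise was PCDHB12 in both, on a probe detected on 1 DoxR-v array alone. Of 14 beta genes with a RefSeq promoter window (250 bases before to 50 after the start), 12 (85.7%) held the letters GGTGGCGCTG, searched for on both strands. These letters were chosen because no run of 10 letters was shared by more beta genes, though other runs may be shared by as many. None of the windows of 13 alpha, 20 gamma, 10 non-clustered and 11 cadherin genes held the chosen letters, and 93 of 27305 genes in all (0.341%) did. The beta share follows from how the letters were chosen, and a match describes the window and not binding. Stretches of 70 bases on the plus strand of GRCh38.p14 around the match, in capitals, are shown for beta genes with a tested probe, to let the shared letters be compared between genes that fell, did not pass or rose between DoxR-v and DoxR.
PCDHB2, chr5:141094525-141094594: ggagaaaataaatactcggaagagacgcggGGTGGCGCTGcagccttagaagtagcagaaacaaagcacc
PCDHB4, chr5:141121704-141121773: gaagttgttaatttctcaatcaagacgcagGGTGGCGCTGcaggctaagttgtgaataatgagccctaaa
PCDHB16, chr5:141182291-141182360: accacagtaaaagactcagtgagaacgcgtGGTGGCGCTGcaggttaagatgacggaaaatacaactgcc
PCDHB10, chr5:141192280-141192349: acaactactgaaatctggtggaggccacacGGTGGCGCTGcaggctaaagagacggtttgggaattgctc
PCDHB9, chr5:141187055-141187124: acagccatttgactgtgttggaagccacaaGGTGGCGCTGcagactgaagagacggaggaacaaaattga
PCDHB12, chr5:141208624-141208693: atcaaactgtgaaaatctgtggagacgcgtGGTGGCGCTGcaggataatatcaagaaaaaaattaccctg

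In PCDHB2 the match began 60 bases before the start and in PCDHB12 65 bases before it. PCDHB2, PCDHB4, PCDHB16 and PCDHB10 fell between DoxR-v and DoxR, PCDHB9 did not pass the test and PCDHB12 rose. The PCDHB12 probe was detected on 1 DoxR-v array and entered the test through that group alone. No contrast of sequence between genes that fell and rose is drawn from it.

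PCDHB2 measured 8.27, 8.39 and 8.38 on the WT arrays, 7.43, 7.97 and 7.77 on the WT-v arrays, 9.32, 9.44 and 9.27 on the DoxR arrays and 6.82, 7.03 and 6.81 on the DoxR-v arrays. The 4 groups did not overlap, with DoxR highest and DoxR-v lowest. PCDHB2 rose 1.99-fold in DoxR against WT (log2 difference 1.00, SE 0.144, adjusted p = 0.000117), and DoxR-v was 5.5-fold below DoxR (log2 difference -2.46, SE 0.144, adjusted p = 3.32e-08) and 2.76-fold below WT (log2 difference -1.46, SE 0.144, adjusted p = 8.2e-06). WT-v fell against WT (log2 difference -0.62, SE 0.144, adjusted p = 0.00492), a call lost with median scaling (-0.18, adjusted p = 0.516) and under the fold threshold without WT-v replicate 1 (-0.48). The fall was steeper between the resistant lines than between the parental lines (interaction -1.84, adjusted p = 1.75e-05). A second, dim PCDHB2 probe, undetected in WT and DoxR-v, gave 0.57 in DoxR and 0.12 in WT-v against WT. In DoxR-v this probe gave -0.29 against WT, not called and with overlapping arrays, and -0.86 against DoxR, called.

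PCDHB18P, a pseudogene of the cluster, measured 6.76, 6.91 and 6.92 on the WT arrays, 5.93, 5.93 and 5.70 on the WT-v arrays, 7.04, 7.01 and 7.18 on the DoxR arrays and 5.49, 5.77 and 5.29 on the DoxR-v arrays. Both vorinostat-exposed lines lay below both unexposed lines without overlap. PCDHB18P was 2.02-fold lower in WT-v than in WT (log2 difference -1.01, SE 0.141, adjusted p = 0.000169) and 2.95-fold lower in DoxR-v than in DoxR (log2 difference -1.56, SE 0.141, adjusted p = 2.18e-06). PCDHB16 measured 6.76, 6.81 and 6.42 on the WT arrays, 5.45, 5.79 and 5.69 on the WT-v arrays, 6.24, 6.86 and 6.53 on the DoxR arrays and 5.21, 5.61 and 6.07 on the DoxR-v arrays. It gave the same split, with 2.03-fold lower levels in WT-v than in WT (log2 difference -1.02, SE 0.216, adjusted p = 0.0028) and 1.88-fold lower levels in DoxR-v than in DoxR (log2 difference -0.91, SE 0.216, adjusted p = 0.005). The interactions of these genes were -0.55 and 0.11, and neither was called (adjusted p = 0.0446 and adjusted p = 0.808).

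PCDHB4 measured 6.76, 6.20 and 7.13 on the WT arrays, 6.89, 7.12 and 6.92 on the WT-v arrays, 6.76, 6.91 and 6.91 on the DoxR arrays and 5.98, 5.24 and 5.96 on the DoxR-v arrays. The DoxR-v arrays lay below all others, which overlapped. PCDHB4 in DoxR-v was 2.19-fold below DoxR (log2 difference -1.13, SE 0.231, adjusted p = 0.00185) and 1.97-fold below WT (log2 difference -0.98, SE 0.231, adjusted p = 0.00621), while WT-v differed from WT by 0.28 (95% interval -0.22 to 0.78). Its interaction was -1.41 (adjusted p = 0.00428). So PCDHB4 was low only where both drugs had been given, whereas PCDHB16 and PCDHB18P were low in both vorinostat-exposed lines.

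PCDHB17P, a pseudogene, measured 5.46, 5.64 and 6.23 on the WT arrays, 6.11, 5.74 and 6.10 on the WT-v arrays, 6.22, 6.46 and 5.89 on the DoxR arrays and 5.47, 5.54 and 5.49 on the DoxR-v arrays. DoxR-v lay below DoxR without overlap (log2 difference -0.69, SE 0.2, adjusted p = 0.0165), and without DoxR replicate 2 the difference was -0.56, under the fold threshold. PCDHB10 measured 4.84, 4.81 and 5.79 on the WT arrays, 5.42, 5.38 and 5.12 on the WT-v arrays, 5.49, 5.41 and 5.65 on the DoxR arrays and 4.72, 4.88 and 4.88 on the DoxR-v arrays. No DoxR-v array detected it, and DoxR was at least 1.16-fold above DoxR-v (log2 difference -0.69, SE 0.216, adjusted p = 0.0251), a difference of -0.55, under the fold threshold, as the mean of its probes. PCDHB19P, also a pseudogene, measured 6.20, 5.63 and 5.46 on the WT arrays, 5.77, 5.46 and 5.71 on the WT-v arrays, 5.51, 4.70 and 5.00 on the DoxR arrays and 5.10, 5.48 and 5.56 on the DoxR-v arrays. Its fall in DoxR against WT (log2 difference -0.69, SE 0.227, adjusted p = 0.0275), the only beta gene to fall there, was lost without WT replicate 1 (adjusted p = 0.123) or DoxR replicate 2 (0.124), and its WT and DoxR arrays overlapped.

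PCDHB9 measured 6.77, 6.05 and 5.55 on the WT arrays, 5.39, 6.33 and 6.07 on the WT-v arrays, 5.46, 5.81 and 5.70 on the DoxR arrays and 5.04, 5.83 and 6.03 on the DoxR-v arrays. PCDHB6 measured 4.40, 4.97 and 5.09 on the WT arrays, 5.25, 5.26 and 5.43 on the WT-v arrays, 5.61, 5.06 and 4.64 on the DoxR arrays and 4.55, 4.78 and 4.89 on the DoxR-v arrays. Neither was called in a pairwise comparison, and PCDHB6 was detected on all arrays of WT-v and on 1 DoxR array. PCDHB12 was detected on 1 DoxR-v array and was called higher in DoxR-v than in DoxR (log2 difference 0.73, SE 0.149, adjusted p = 0.00198), where DoxR was not detected on any array, so the filter let it in through the higher group alone. The same limit holds for its call in DoxR-v above WT-v (log2 difference 0.62, SE 0.149, adjusted p = 0.00699).

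**Figure D4:**
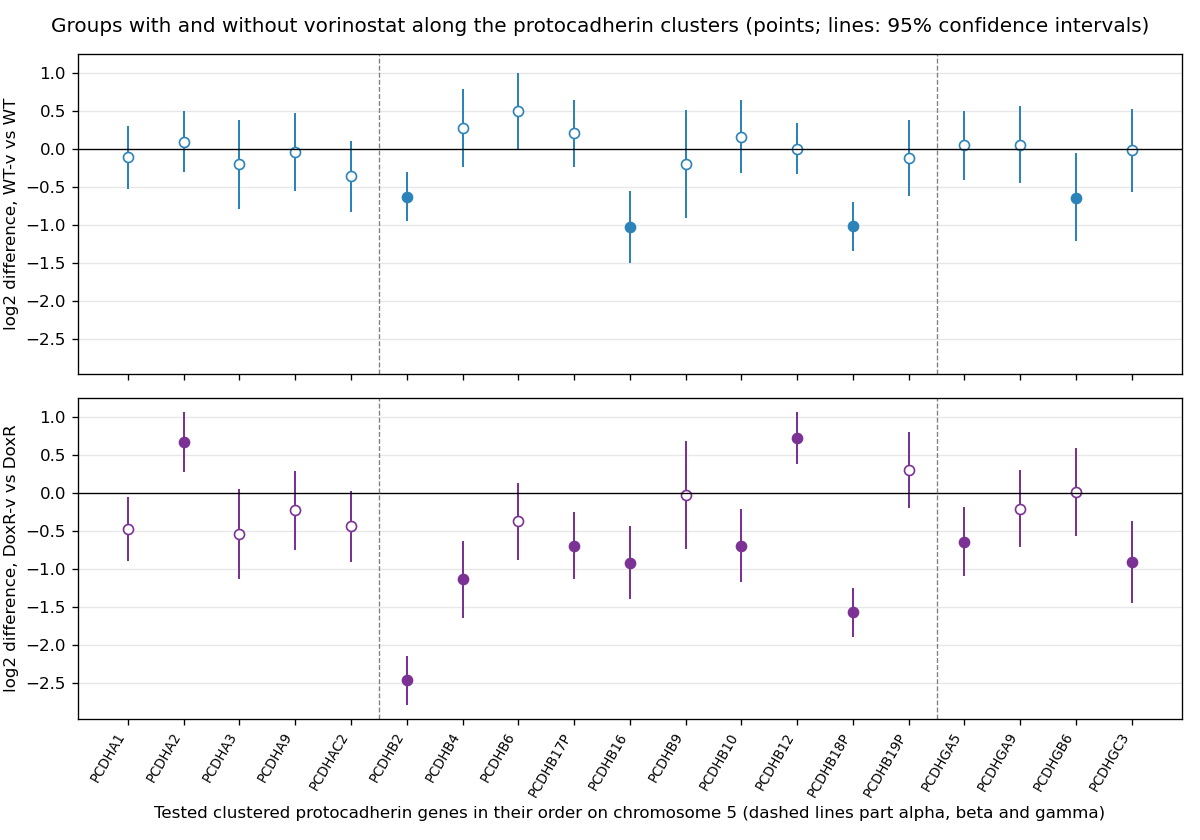
Log2 difference (vertical axes) between WT-v and WT (upper panel) and between DoxR-v and DoxR (lower panel) for the 19 tested clustered protocadherins in their order along chromosome 5. Points are differences, lines 95% confidence intervals, filled points passed the test, and dashed lines part the alpha, beta and gamma clusters. PCDHB2, PCDHB16 and PCDHB18P were called below 0 in both panels, and PCDHB2 reached -2.46 in the lower one.

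Of the alpha cluster, PCDHA1 measured 5.58, 6.07 and 5.56 on the WT arrays, 5.41, 5.73 and 5.75 on the WT-v arrays, 5.00, 5.69 and 5.25 on the DoxR arrays and 4.89, 4.81 and 4.81 on the DoxR-v arrays. No DoxR-v array detected it, and WT was at least 1.36-fold above DoxR-v (log2 difference -0.90, SE 0.188, adjusted p = 0.00291). PCDHA2 measured 5.48, 6.03 and 5.88 on the WT arrays, 5.77, 5.99 and 5.93 on the WT-v arrays, 5.09, 5.35 and 4.67 on the DoxR arrays and 5.70, 5.71 and 5.74 on the DoxR-v arrays. It fell in DoxR against WT (log2 difference -0.76, SE 0.178, adjusted p = 0.00408) and was higher in DoxR-v than in DoxR (log2 difference 0.68, SE 0.178, adjusted p = 0.00919), and both missed the fold threshold without DoxR replicate 3 (-0.58 and 0.50), the former also with median scaling (-0.56). Between the resistant lines PCDHA1 differed by -0.47, which was not called (adjusted p = 0.0701).

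PCDHA3 measured 4.89, 5.25 and 5.98 on the WT arrays, 5.49, 4.73 and 5.30 on the WT-v arrays, 5.78, 5.66 and 5.17 on the DoxR arrays and 4.87, 4.95 and 5.19 on the DoxR-v arrays. Its 3 tested probes had opposite signs between DoxR-v and DoxR (-0.53, 0.46 and 0.42) and it was not called. PCDHAC2, a C-type isoform near the end of the cluster, measured 5.41, 5.71 and 5.32 on the WT arrays, 5.08, 5.39 and 4.89 on the WT-v arrays, 5.72, 4.93 and 5.40 on the DoxR arrays and 4.82, 5.22 and 4.71 on the DoxR-v arrays and was not called. No alpha gene was called between WT-v and WT, and none had an unadjusted p below 0.05 there. PCDHA9, CDH23 and, in the gamma cluster, PCDHGA9 were each detected on 1 array in all and were not called.

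Of the gamma cluster, PCDHGB6 measured 7.54, 8.01 and 7.03 on the WT arrays, 7.09, 6.89 and 6.69 on the WT-v arrays, 6.37, 6.29 and 7.09 on the DoxR arrays and 6.34, 6.50 and 6.96 on the DoxR-v arrays. The WT arrays lay above the DoxR-v arrays and overlapped the others. PCDHGB6 fell in DoxR (log2 difference -0.94, SE 0.263, adjusted p = 0.0115) and DoxR-v (log2 difference -0.93, SE 0.263, adjusted p = 0.017) against WT, the latter lost with median scaling (-0.44, adjusted p = 0.14). Its fall in WT-v (log2 difference -0.64, SE 0.263, adjusted p = 0.0781) was lost without WT replicate 1, WT replicate 2, WT-v replicate 2 or WT-v replicate 3 (adjusted p from 0.137 to 0.297). PCDHGC3, the C-type isoform of most tissues, measured 4.49, 5.58 and 4.88 on the WT arrays, 4.66, 5.23 and 5.01 on the WT-v arrays, 5.58, 5.46 and 5.73 on the DoxR arrays and 4.61, 4.45 and 5.01 on the DoxR-v arrays. No DoxR-v array detected it, and DoxR was at least 1.23-fold above DoxR-v (log2 difference -0.90, SE 0.246, adjusted p = 0.0117). Its rise in DoxR against WT (log2 difference 0.61, SE 0.246, adjusted p = 0.0654), with overlapping arrays, held under 11 of 20 alternatives and was lost without WT replicate 1 (0.36, adjusted p = 0.268), WT replicate 3 (0.137), DoxR replicate 1 (0.124) or DoxR replicate 3 (0.166). The call was also lost with no detection filter (adjusted p = 0.134) and with only the WT and DoxR arrays fitted (0.108). A second PCDHGC3 probe gave 0.29 in DoxR against WT, not called, and -0.76 between DoxR-v and DoxR, also called. PCDHGA5 was detected on 2 DoxR arrays alone, where it was called higher than in WT (log2 difference 0.67, SE 0.205, adjusted p = 0.0198). The filter thus let PCDHGA5 in through the higher group alone.

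The genes around the clusters give a context for these counts. Of 30 other tested genes within 1000000 bases, 4 fell and 2 rose in DoxR-v against DoxR (median 0.10), beside 13.9% lower and 14.3% higher among all genes. In DoxR-v against WT 3 fell and 1 rose (median -0.07), beside 11.8% and 12.6%. Of 517 other tested genes of the whole of chromosome 5, 131 fell and 35 rose in DoxR-v against DoxR (median -0.25). In DoxR-v against WT 57 of the 517 fell and 53 rose (median -0.02). TAF7, a general transcription factor gene that lies between the beta and gamma clusters, differed by -0.10 in DoxR-v against WT. The difference between the clustered genes and these neighbours or the chromosome was not tested.

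Other genes of cadherin contacts were taken from fixed lists. CTCF, cohesin and the silencing factors that act on the protocadherin clusters had 16 of 18 members tested. In WT-v 9 were higher than WT and 0 lower, with 2 of 16 below 0 at an unadjusted p below 0.05 (median 0.63), beside 14.0% higher and 12.3% lower among all genes, led by DNMT3B (1.03), CTCF (1.11), EHMT2 (0.83) and EHMT1 (1.24). In DoxR 7 were higher and 0 lower (1 below 0 at an unadjusted p below 0.05), beside 17.1% higher and 16.0% lower among all genes, led by the cohesin subunit RAD21 (0.88) and the histone methyltransferase SETDB1 (0.98). Between DoxR-v and DoxR, where 14.3% of all genes were higher and 13.9% lower, 5 were lower, among them RAD21 (-0.91), SETDB1 (-0.67) and the cohesin loader NIPBL (-0.74), and 1 was higher, the de novo DNA methyltransferase DNMT3B (log2 difference 1.60, SE 0.133, adjusted p = 1.05e-06). CTCF itself differed by -0.32 there and was not called (adjusted p = 0.233). With median scaling 12 were higher in WT-v and 10 in DoxR against WT, none lower, and 3 lower and 1 higher between DoxR-v and DoxR.

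Of the transcription factors that repress E-cadherin, 7 of 9 were tested. In WT-v 5 were higher and 0 lower, with none below 0 at an unadjusted p below 0.05 (median 0.78), beside 14.0% higher and 12.3% lower among all genes, including TCF3 (2.08) and SNAI2 (1.40). SNAI2 rose 5.96-fold in DoxR against WT (log2 difference 2.57, SE 0.169, adjusted p = 9.56e-08), and DoxR-v was 9.33-fold below DoxR (log2 difference -3.22, SE 0.169, adjusted p = 1.15e-08). TWIST1 ran the other way, at -1.53 in DoxR against WT (adjusted p = 2.26e-07) and 0.90 in DoxR-v against DoxR (adjusted p = 3.13e-05). CDH1, which these factors repress, was not detected in any group.

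Of the catenin and p120 family 11 of 15 were tested, with 4 higher and 3 lower in DoxR, 1 and 3 in DoxR-v and 2 and 2 in WT-v against WT, beside 33.1%, 24.4% and 26.3% of all genes called in either direction. With median scaling these were 4 and 1, 4 and 1, and 4 and 0, so no falls in WT-v remained called on that scale. CTNNA1 (alpha-catenin), which joins the complex to actin, fell between DoxR and DoxR-v (log2 difference -1.05, SE 0.178, adjusted p = 0.000477). Vinculin (VCL), which reinforces that joint, rose in DoxR (log2 difference 0.80, SE 0.113, adjusted p = 9.41e-05) and fell in WT-v (log2 difference -0.68, SE 0.113, adjusted p = 0.000618) against WT. CTNNB1 (beta-catenin) rose in WT-v (log2 difference 0.65, SE 0.237, adjusted p = 0.0488), and ARVCF, a p120 relative, fell in DoxR (log2 difference -0.99, SE 0.156, adjusted p = 0.000232) and DoxR-v (log2 difference -0.76, SE 0.156, adjusted p = 0.00257), all against WT.

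Of 24 other genes of the cadherin superfamily 8 were tested. FAT1, a giant atypical cadherin, was at least 6.53-fold above undetected WT in DoxR (log2 difference 3.42, SE 0.135, adjusted p = 8.66e-10), at least 2.72-fold in WT-v (log2 difference 2.16, SE 0.135, adjusted p = 1.44e-07) and at least 7.06-fold lower in DoxR-v than in DoxR (log2 difference -3.66, SE 0.135, adjusted p = 3.83e-10). CLSTN2 (calsyntenin 2), a synaptic member, gave the reverse order, at -2.61 in DoxR and -1.64 in WT-v against WT (adjusted p = 3.04e-08 and adjusted p = 6.57e-06) and 2.53 in DoxR-v against DoxR (adjusted p = 4.58e-08). FAT1 was thus undetected in WT and DoxR-v and high in WT-v and DoxR, the lines in which PCDH19 was undetected and CLSTN2 lower. In DoxR-v against WT none of the 8 was called by limma, beside 24.4% of all genes. At an unadjusted p below 0.05, 1 lay above 0 and 0 below, and with median scaling 3 were called higher. Of 13 proteases and sorting factors that act on cadherins 11 were tested, and 1 was called in DoxR (ADAM15, a sheddase, log2 difference 1.2, SE 0.173, adjusted p = 0.00011), 1 in DoxR-v (PSENEN, a gamma-secretase subunit, log2 difference -0.77, SE 0.186, adjusted p = 0.00697) and 2 in WT-v (the gamma-secretase subunits APH1A, 0.59, and PSEN2, -0.72), all against WT. Among all genes 33.1%, 24.4% and 26.3% were called in DoxR, DoxR-v and WT-v against WT. With median scaling none of the proteases was lower in these comparisons, and 2, 2 and 3 were higher.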

How the data were processed

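RNA of 12 SK-N-SH specimens had been hybridised to Illumina HumanHT-12 arrays. The authors deposited non-normalized probe intensity with a detection p-value per probe and array, and a table of normalized intensity, used here as an alternative. The submitters' processing notes name lumi 2.13.3 and R 3.0.1. The intensities were background corrected by normexp with the detection p-values (neqc, offset 16), quantile normalized and put on the log2 scale with limma 3.58.1 under R 4.3.3. The 21609 probes with a detection p below 0.01 on at least 1 array were tested. All 12 arrays entered 1 limma fit with a mean for each group, moderated by eBayes, and p-values were adjusted by Benjamini-Hochberg over these probes. Calls needed an adjusted p below 0.1 and a fold above 1.5, the thresholds of the study's methods. Dim probes are compressed on this scale, so their folds are understated, and the number of arrays limits the precision.

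Genes were named from the platform annotation, in which 30113 probes had 1 gene symbol, 8 several and 17202 none, and all 90 members matched RefSeq by Entrez identifier. Promoters (RefSeq, GRCh38.p14) were found for 68 of 90 members. Array values are given for each member that was called in a pairwise comparison and detected on all 3 arrays of a group (25), and for the 5 others with the highest mean level. Of the lists, up to 4 called genes per comparison with the smallest adjusted p were eligible to be named, and TAF7, CTCF between the resistant lines and the members outside these 30 were named after their values had been seen. The members and lists were chosen with earlier results of these data known. The script was tested on simulated data.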

Additional observations from a re-analysis of the deposited data

Results flagged for a closer look

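In 15 members the vorinostat difference was not the same in resistant and parental lines, by the limma test of the interaction (DoxR-v minus DoxR, less WT-v minus WT), beside 42.1% of all tested genes. PCDH19 gave the highest value at 7.01, followed by CDH12 at 2.05, CDH11 at 1.07, CDH2 at 0.862 and PCDHB12 at 0.719, the last on a probe detected on 1 array. CDH6 gave the lowest value at -5.08, followed by PCDHB2 at -1.84, CDH18 at -1.82, PCDH20 at -1.42 and PCDHB4 at -1.41. Smaller values below 0 were those of PCDHB17P at -0.896, PCDHGC3 at -0.89, PCDHB6 at -0.862, PCDHB10 at -0.848 and PCDHGA5 at -0.688. The PCDHGA5 probe was detected on 2 DoxR arrays alone. No floor was set in these values where a group had no detected array, as for PCDH19, CDH6 and CDH12. Of the beta and gamma members among the 15, PCDHB12 alone lay above 0. The calls of PCDHGC3, PCDHB6 and PCDHB10 were lost when single arrays were left out (adjusted p up to 0.142, 0.126 and 0.104). Groups of 3 arrays were too small for a test of outlying arrays.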

How the results depend on the processing

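Of 180 differences (30 named genes in 6 comparisons) 79 were called, and 25 of these held under every alternative run with the same thresholds: all 6 of PCDH19, 4 of PCDHB2, 3 each of CDH2, CDH6, CDH10 and PCDH7, 2 of CDH11 and 1 of CDH12. The alternatives did not run a gene's dimmer probe alone. Such a probe gave 0.04 for PCDH7 in DoxR-v against WT-v and -0.29 for PCDHB2 in DoxR-v against WT, neither called. Under the alternatives no call changed sign. With DoxR, DoxR-v and WT-v set against WT, then DoxR-v against DoxR and against WT-v, and last the interaction, 16, 15, 9, 18, 13 and 15 members were called. Without background correction these were 7, 7, 2, 7, 8 and 9, and with the authors' normalized values 6, 5, 1, 5, 4 and 4. Of the calls these settings ended, 37 of 39 and 50 of 54 still had an adjusted p below 0.1 and missed the fold. With limits of 0.05 on the adjusted p and 2 on the fold the counts were 7, 9, 5, 7, 7 and 8. With median scaling the median difference over all tested probes was 0.131, 0.261, 0.244, 0.102, -0.00545 and -0.142. In the main run it was -0.000157, 0.00832, 0.0151, -0.00237, -0.0233 and -0.0133. Median scaling gave higher and lower calls of 12 and 4, 7 and 7, 10 and 3, 9 and 10, 6 and 9, and 5 and 14. Leaving out single arrays gave 13 to 20, 14 to 17, 7 to 11, 16 to 19, 12 to 14 and 12 to 17 calls. Members detected in DoxR-v rose from 16 to 27 when 1 array was enough. Slide or scan as a block was not run, since no file named either.

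Replicate numbers did not pair the arrays: of 18 pairs of equal number 1 had correlated deviations above 0.1 (range -0.325 to 0.167). With the replicate number as a block the counts were 16, 15, 8, 18, 13 and 15, and PCDHGB6 in WT-v against WT was the call lost (adjusted p = 0.107).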
